A study of Homo sapiens with 58 samples.

Results

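The genes of prostaglandin synthesis, breakdown and reception were followed in HaCaT keratinocytes. They are PLA2G4A, PTGS1, PTGS2, PTGES, HPGD, PTGER2 and PTGER4, 7 of the 19775 genes with a probe set that carried 1 gene symbol. The genes were chosen for their place in the pathway, with earlier results of these data known. Counts of them that passed are therefore set beside shares of all genes as descriptions only. The 7 genes had 16 probe sets among 41097. Where a gene had several, the one with the highest mean of the 58 arrays stood for the gene.

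HaCaT is a spontaneously immortalized line of human keratinocytes, and every array came from HaCaT or a line derived from it. The derived lines were HaCaT-HRAS, with forced expression of HRAS-VAL12D, HaCaT-EGFR, with EGFR, HaCaT-p65, with RELA/p65, and HaCaT-vector, with the empty vector. Serum cultures gave 5 arrays of HaCaT-EGFR and 3 of every other line. Of the HaCaT-EGFR serum arrays 2 were labelled 4 h and 8 h, and no other serum array without inhibitor was labelled with either time. Serum-free medium with EGF at 10 ng/ml gave 7 arrays of HaCaT-EGFR, harvested after 4 h or 8 h, and 4 of HaCaT-vector, harvested after 4 h. The same medium with TNF-α at 10 ng/ml gave 5 arrays of HaCaT-p65, after 4 h or 8 h, and 3 of HaCaT-vector, after 4 h. Starved cells, without serum or ligand, gave 7 arrays of HaCaT-EGFR and 3 of HaCaT-p65, after 4 h or 8 h, and 4 of HaCaT-vector, after 4 h. The EGFR inhibitor gefitinib was given to HaCaT-EGFR with EGF (2 arrays, at 4 h and 8 h) or in serum (2 arrays, at 4 h and 8 h). LY294002, which inhibits PI3K, and U1026, named as in the labels for the inhibitor of MEK, were each given with EGF for 4 h to HaCaT-EGFR and to HaCaT-vector, 1 array each. No source used here states whether a derived line was 1 clone or a pool, nor whether replicates were separate cultures. The p-values thus measure only the spread between arrays. For each gene the main model took that spread over all conditions together, not from the compared groups alone.

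Phospholipase A2 frees arachidonic acid from membranes, the cyclooxygenases convert it to PGH2, and a terminal synthase makes PGE2. In the epidermis PGE2 acts back on keratinocytes through its receptors and on neighbouring cells, and cyclooxygenase 2 is the step best known for its induction by growth factors and injury. An uptake transporter and 15-hydroxyprostaglandin dehydrogenase end the signal.

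Promoter windows from RefSeq (GRCh38.p14), 250 bases before to 50 after a gene's start, were matched by symbol for all 7 genes, with 9 windows in all. The windows of PTGS2 and PTGER2 are shown because these genes moved in opposite directions with U1026, and that of PTGES because it had the largest change of any of the genes. Capitals mark matches to any of 7 motifs searched on both strands, namely the TATA box TATAAA, the CRE half-site TGACG, the full CRE TGACGTCA, which contains the half-site, the AP-1 site TGANTCA, the E-box CACGTG, the GC box GGGCGG and the NF-κB consensus.
PTGS2, chr1:186680374-186680673, minus strand: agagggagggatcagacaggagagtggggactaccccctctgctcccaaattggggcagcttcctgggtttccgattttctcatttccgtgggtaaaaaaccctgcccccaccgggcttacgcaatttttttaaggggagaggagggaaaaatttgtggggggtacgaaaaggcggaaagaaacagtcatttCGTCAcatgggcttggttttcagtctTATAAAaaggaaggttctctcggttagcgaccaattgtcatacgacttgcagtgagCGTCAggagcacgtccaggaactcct
PTGES, chr9:129752993-129753292, minus strand: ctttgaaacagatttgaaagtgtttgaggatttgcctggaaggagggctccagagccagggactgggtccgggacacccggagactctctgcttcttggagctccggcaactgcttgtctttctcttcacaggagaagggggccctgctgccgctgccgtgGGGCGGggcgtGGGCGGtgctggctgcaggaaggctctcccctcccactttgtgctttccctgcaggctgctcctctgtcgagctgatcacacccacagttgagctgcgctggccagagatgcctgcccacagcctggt
PTGER2, chr14:52314062-52314361, plus strand: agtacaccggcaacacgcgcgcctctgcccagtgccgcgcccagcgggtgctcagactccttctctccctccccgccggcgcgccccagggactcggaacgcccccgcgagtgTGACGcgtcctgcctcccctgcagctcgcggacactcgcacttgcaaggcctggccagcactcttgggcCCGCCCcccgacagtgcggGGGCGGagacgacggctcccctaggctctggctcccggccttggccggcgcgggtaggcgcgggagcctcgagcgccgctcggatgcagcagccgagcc
In the PTGS2 window TATAAA stood at -32 to -27, counting the start base as 0, and the CRE half-site on the minus strand at -58 to -54 and again at 24 to 28. The PTGER2 window held the half-site on the plus strand at -137 to -133 and GC boxes at -68 to -63 and -49 to -44. The PTGES window held GC boxes at -89 to -84 and -78 to -73. Over 35116 windows of this length, TATAAA was found in 11.5%, the CRE half-site in 24.6%, the full CRE in 1.85%, the AP-1 site in 7.71%, the E-box in 7.26%, the GC box in 45.0% and the NF-κB consensus in 5.91%. No window of the 7 genes held the full CRE or the AP-1 site, and the PLA2G4A window, on chromosome 1, held none of the motifs.

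Values below are log2 expression, a change is the log2 difference between condition means with its standard error (SE), and a gene passed where limma's p, adjusted over 19775 genes, was under 0.05. Shares of all genes are given by the adjusted p. The share with an unadjusted p under 0.05 was not counted for any comparison. Array medians lay between 4.98 and 5.24, and no arrays were identical. The introduced genes were checked in serum against HaCaT-vector. HRAS was 2.41 higher in HaCaT-HRAS (adjusted p = 3.05e-23). The 2 RELA probe sets differed by 0.27 and 0.40 in HaCaT-p65, and the one that stood for the gene did not pass (0.27, adjusted p = 0.256). Of the 9 EGFR probe sets, 2 were higher in every HaCaT-EGFR serum array than in every HaCaT-vector one, with differences over all 9 of -0.42 to 1.00, and the one that stood for the gene did not pass (-0.02, adjusted p = 0.993). Whether these probe sets lie in the introduced sequences was not examined. Of the keratinocyte markers, KRT5 and KRT14 were at least 10.84 and 10.72 on every array. The serum arrays of HaCaT-HRAS, HaCaT-p65, HaCaT-vector and HaCaT share 1 processing date with 3 arrays of HaCaT-EGFR, and no starved, ligand or inhibitor array was processed on that date.

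In serum, HaCaT-HRAS had the highest levels of PLA2G4A and PTGES of all 18 conditions and the lowest level of PTGS1. Against HaCaT-vector, PLA2G4A and PTGES were higher, PTGS1 was lower and the other 4 genes did not pass, so 3 of 7 passed, where 18.2% of all genes did. PLA2G4A, the cytosolic phospholipase A2 that releases arachidonic acid, was at 6.84, 6.95 and 6.67 in HaCaT-HRAS, against 4.02, 4.03 and 3.91 in HaCaT-vector. The ranges lay far apart, and the change was 2.83 (SE 0.33, adjusted p = 6.26e-09). The HaCaT-vector values lay below the array medians of 4.98 to 5.24, and PLA2G4A had no other probe set. PTGS1, the constitutive cyclooxygenase, was at 7.39, 7.54 and 7.21 in HaCaT-HRAS and at 10.21, 10.32 and 10.26 in HaCaT-vector, a change of -2.88 (SE 0.38, adjusted p = 9.93e-08). All 4 probe sets of PTGS1 passed in this direction, with changes from -0.89 to -3.15. PTGES, the inducible microsomal PGE2 synthase, stood at 11.13, 11.22 and 11.20 in HaCaT-HRAS and at 7.98, 8.11 and 8.18 in HaCaT-vector, a change of 3.09 (SE 0.37, adjusted p = 1.17e-08). Its other probe set did not pass and correlated at 0.44 with the first over the 18 condition means. All arrays of this comparison shared 1 date.

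PTGS2, the inducible cyclooxygenase, was at 8.30, 8.69 and 9.29 in HaCaT-HRAS and at 7.81, 8.29 and 8.31 in HaCaT-vector. The ranges overlapped, and the change of 0.62 (SE 0.25, adjusted p = 0.0884) did not pass. Deviations of same-numbered serum arrays of these lines correlated at 0.191 to 0.527, and those of differently numbered ones at -0.412 to 0.247. With replicate number as a block the adjusted p of PTGS2 was 0.0625. With date and number as a block, a fit added after the data were seen, it was 0.0120. The dimmer PTGS2 probe set gave 1.08 with an adjusted p of 0.0365 over all probe sets. HPGD, the dehydrogenase that inactivates prostaglandins, was at 4.60, 5.97 and 6.15 in HaCaT-HRAS and at 6.00, 6.42 and 6.77 in HaCaT-vector (change -0.83, SE 0.46, adjusted p = 0.267). The receptor EP2, PTGER2, was at 4.62, 4.23 and 3.89 in HaCaT-HRAS and at 4.63, 4.66 and 4.32 in HaCaT-vector (change -0.29, SE 0.28, adjusted p = 0.593). The receptor EP4, PTGER4, was at 10.05, 9.84 and 9.30 in HaCaT-HRAS and at 9.20, 9.28 and 8.80 in HaCaT-vector, with non-overlapping ranges and a change of 0.64 (SE 0.27, adjusted p = 0.103). Without HaCaT-HRAS replicate 3 the PTGER4 change was 0.85 with an adjusted p of 0.0433. Without HaCaT-HRAS replicate 1 that of PTGS2 was 0.85 with an adjusted p of 0.0269.

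**Figure D1:**
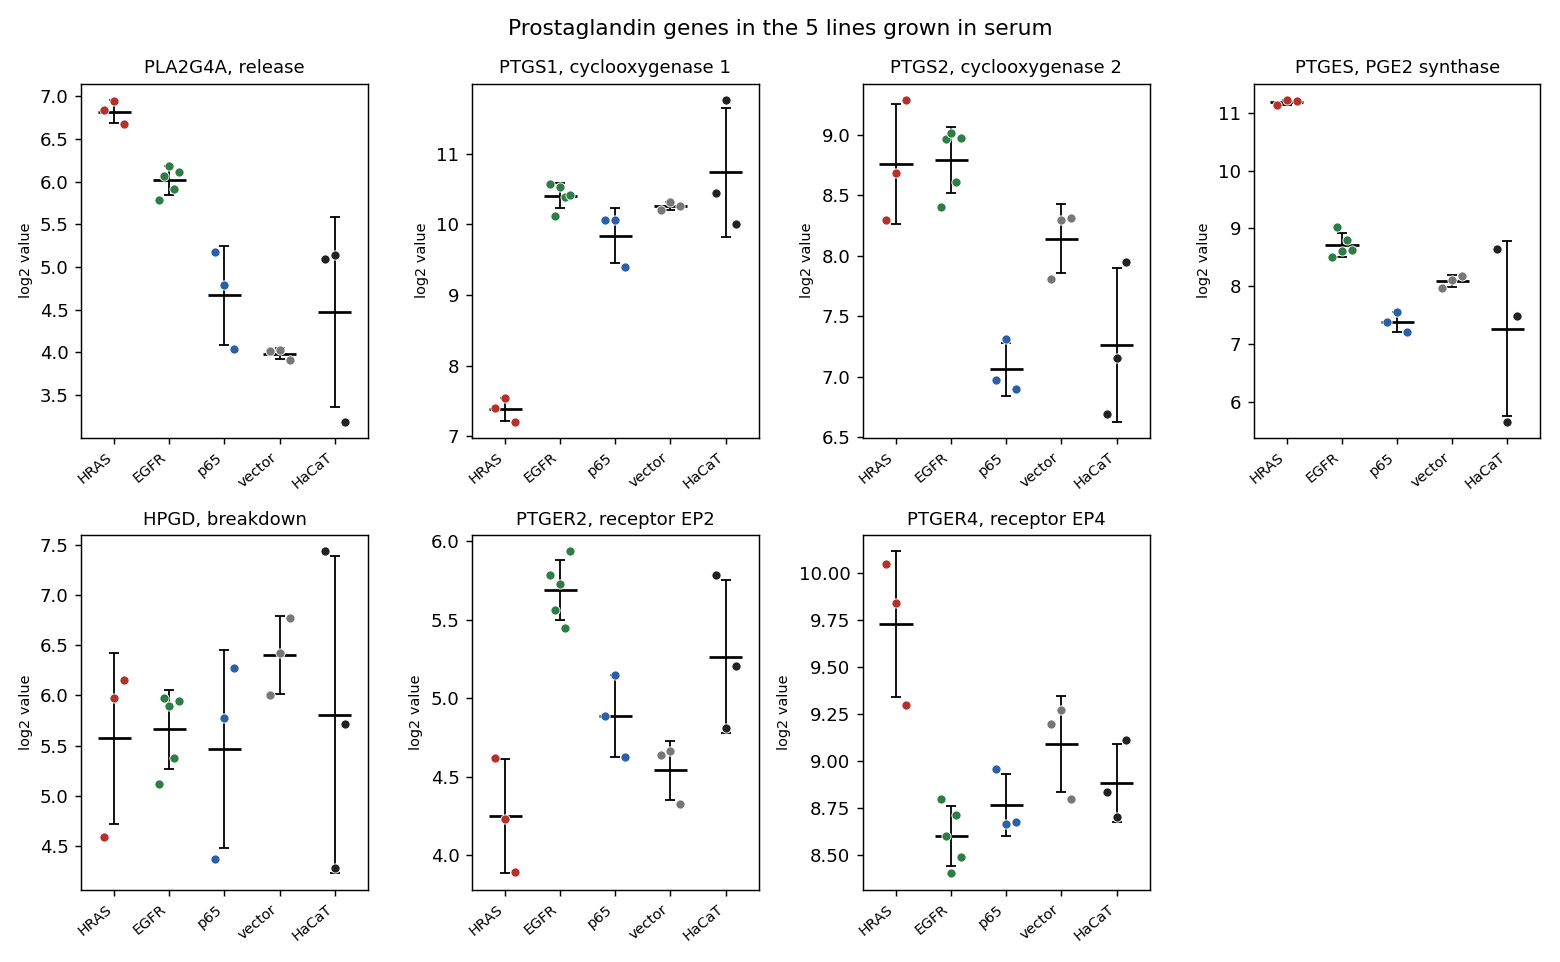
Log2 values of the 7 genes on serum arrays, 1 panel a gene, by line. Points are arrays, horizontal lines are means and bars are the SD. PTGES and PLA2G4A were highest and PTGS1 lowest in HaCaT-HRAS, and the 3 arrays of HaCaT spread widely.

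Against HaCaT itself, in which no gene was introduced, 6 of the 7 genes passed in HaCaT-HRAS, where 17.7% of all genes did. PLA2G4A (2.35), PTGS2 (1.49), PTGES (3.91) and PTGER4 (0.85) were higher, PTGS1 (-3.36) and PTGER2 (-1.02) were lower, and HPGD (-0.24, adjusted p = 0.850) did not pass. The HaCaT arrays differed among themselves more than those of any derived line in serum for 6 of the genes. PTGES was at 8.65, 5.66 and 7.49 on them, HPGD at 7.43, 4.28 and 5.71, and PLA2G4A at 5.09, 5.14 and 3.19. In a fit of the compared groups alone PTGS1, PTGES and PLA2G4A passed and the other 3 did not. PTGER2 was lost without HaCaT replicate 1 or HaCaT-HRAS replicate 3 (adjusted p = 0.0819 and 0.0632). PTGER4 was lost without any 1 of HaCaT replicate 1, HaCaT replicate 2, HaCaT-HRAS replicate 1 and HaCaT-HRAS replicate 2 (adjusted p between 0.0566 and 0.130).

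The other genes of the pathway were taken from 5 lists that cover arachidonate release and reuptake, other prostanoid synthases, transport and breakdown, other receptors, and the lipoxygenase branch. Of their 43 genes 40 were measured, and in HaCaT-HRAS against HaCaT-vector 5 were higher and 8 lower, with a median change of -0.13 beside -0.04 over all genes. Of the transport and breakdown genes 1 of 6 was higher and 3 were lower. SLCO2A1, the prostaglandin transporter that takes PGE2 into the cell, was 2.37 higher (adjusted p = 3.51e-15). PTGR1, a reductase that continues the breakdown begun by HPGD, changed by -1.64 (adjusted p = 1.11e-15). The exporter ABCC4 changed by -0.64 and CBR1, a carbonyl reductase, by -0.56. Of 7 measured synthases, PTGIS, the prostacyclin synthase, was 2.16 higher (adjusted p = 2.77e-06). AKR1C3, which makes PGF2α and has near-identical relatives that its probes may also bind, was 1.83 higher, and PTGES2 changed by -0.33. Of 10 release genes MGLL was 0.78 higher and 4 were lower, among them PLAA (-0.87), named for activating phospholipase A2, and PLA2G12A (-0.46). ANXA1, the annexin first described as an inhibitor of phospholipase A2, fell by 1.00 (adjusted p = 6.81e-09). In the lipoxygenase branch LTA4H alone of 9 passed (0.36), and of 8 other receptors none did.

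Against HaCaT the calls of PTGIS (0.69, adjusted p = 0.170), AKR1C3 (0.53, adjusted p = 0.592), PTGES2 (-0.14, adjusted p = 0.419), MGLL (0.30, adjusted p = 0.562) and PLAA (-0.29, adjusted p = 0.0585) were not made, while SLCO2A1 (2.59), PTGR1 (-1.50) and ANXA1 (-1.10) passed there too.

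Some of the calls against HaCaT-vector rested on single arrays or settings. MGLL did not pass with every array centred on its median (adjusted p = 0.0592), nor without any 1 of HaCaT-HRAS replicates 2 and 3 and HaCaT-vector replicates 1 and 3 (adjusted p between 0.0722 and 0.175). LTA4H did not in the fit of the 2 lines alone (adjusted p = 0.0581), PTGES2 without HaCaT-vector replicate 3 (adjusted p = 0.0838) and PLA2G12A without HaCaT-HRAS replicate 3 (adjusted p = 0.0576). The fourth lower release gene, DAGLB, a diacylglycerol lipase (-0.31), did not pass with all probe sets (adjusted p = 0.0510), in the fit of the 2 lines alone (adjusted p = 0.106) or without any 1 of 5 of the 6 arrays, the exception being HaCaT-HRAS replicate 3 (adjusted p between 0.0550 and 0.273). HaCaT-HRAS also differed in the markers of cell types. Of 6 keratinocyte markers 5 were lower than in HaCaT-vector, and the mean of the list was 10.7 in HaCaT-HRAS and 11.6 in HaCaT-vector. KRT14 averaged 10.8 in HaCaT-HRAS and 13.2 in HaCaT-vector. Of 5 endothelial markers 1 passed, and CDH5 averaged 8.66 in HaCaT-HRAS and 4.37 in HaCaT-vector, while PECAM1, VWF, KDR and TEK averaged 5.43, 4.80, 3.95 and 3.75 in HaCaT-HRAS. Of 5 leukocyte markers 1 passed, with LYZ at 6.20 in HaCaT-HRAS and 4.30 in HaCaT-vector and PTPRC, which marks all leukocytes, at 4.24 in HaCaT-HRAS and 4.03 in HaCaT-vector. None of 7 fibroblast or 4 melanocyte markers passed. In RNA of whole cultures, fewer cells of a type and less RNA per cell cannot be told apart. The part of these markers in the results was not tested.

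HaCaT-EGFR in serum also carried more PLA2G4A than HaCaT-vector, and it carried more of the EP2 receptor. Of the 7 genes these 2 passed, where 7.87% of all genes did. The HaCaT-EGFR serum arrays were 3 of the first date and 2 of the sixth, listed last. The date subtraction made the means of both dates equal (6.01 for PLA2G4A). The sixth-date arrays thus gave no independent level against HaCaT-vector, whose serum arrays were all of the first date. PLA2G4A was at 5.78, 6.07, 6.19, 5.91 and 6.12 in HaCaT-EGFR, all above the 3.91 to 4.03 of HaCaT-vector (change 2.03, SE 0.33, adjusted p = 1.99e-05). PTGER2 was at 5.78, 5.56, 5.73, 5.45 and 5.94 in HaCaT-EGFR and at 4.63, 4.66 and 4.32 in HaCaT-vector, again without overlap (change 1.15, SE 0.28, adjusted p = 0.00451). The HaCaT-vector values of both genes lay below the array medians of 4.98 to 5.24. PTGS2 ranged from 8.40 to 9.02 in HaCaT-EGFR and from 7.81 to 8.31 in HaCaT-vector, without overlap. Its change of 0.65 (SE 0.25, adjusted p = 0.125) did not pass, nor did it with replicate number as a block (adjusted p = 0.0863). With the added block of date and number the adjusted p of PTGS2 was 0.0160. The other genes changed by 0.14 (PTGS1), 0.63 (PTGES), -0.74 (HPGD) and -0.49 (PTGER4), with adjusted p between 0.408 and 0.968, and PTGES passed when these groups alone were fitted (adjusted p = 0.0371). Against HaCaT, where 3.88% of all genes passed, PTGS2 (1.53, adjusted p = 8.10e-05), PLA2G4A (1.54, adjusted p = 0.00228) and PTGES (1.45, adjusted p = 0.0139) were higher in HaCaT-EGFR. PTGER2 did not pass there (0.43, SE 0.28, adjusted p = 0.607), with HaCaT at 4.81 to 5.78.

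The calls of HaCaT-EGFR against HaCaT did not hold in every fit. In the fit of these groups alone none of the 3 passed. Without HaCaT replicate 2 the PTGES change was 0.64 (adjusted p = 0.377), and without HaCaT-EGFR replicate 2 it was 1.29 (adjusted p = 0.0887). Without HaCaT replicate 3 the PLA2G4A change was 0.90 (adjusted p = 0.0742). Of the 40 other pathway genes, PTGIS (1.08) was higher and PTGR2 (-1.12) and CBR3 (-0.38), both reductases, were lower in HaCaT-EGFR than in HaCaT-vector. PTGR2 passed in every fit of this comparison. PTGIS did not pass without any 1 of HaCaT-EGFR replicates 2 and 3 and HaCaT-vector replicates 1, 2 and 3 (adjusted p between 0.0570 and 0.184). CBR3 did not without any 1 of the 6 first-date arrays of these lines (adjusted p between 0.0543 and 0.213). It also did not pass with arrays centred on their median (adjusted p = 0.0804), quantile normalized (adjusted p = 0.0517) or with all probe sets (adjusted p = 0.0545). Against HaCaT, PTGR2 was lower (-0.66, adjusted p = 0.00521), and PTGIS (-0.39, adjusted p = 0.752) and CBR3 (-0.21, adjusted p = 0.516) did not pass. PTGR2 did not pass there in the fit of these groups alone (adjusted p = 0.308) or without HaCaT-EGFR replicate 1 of the first date (adjusted p = 0.0914).

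HaCaT-p65 carried less PTGS2 in serum than HaCaT-vector, the single gene of the 7 that passed in this comparison, where 7.18% of all genes did. The arrays were at 6.97, 7.31 and 6.90 in HaCaT-p65 and at 7.81, 8.29 and 8.31 in HaCaT-vector, without overlap (change -1.08, SE 0.25, adjusted p = 0.00353). Leaving out any 1 array gave changes from -1.24 to -0.99. PTGES was at 7.39, 7.56 and 7.21 in HaCaT-p65, all below the HaCaT-vector arrays, and its change of -0.70 (SE 0.37, adjusted p = 0.358) passed when these groups alone were fitted (adjusted p = 0.0177). Against HaCaT, where 5.94% of all genes passed, none of the 7 did by limma, 1 (PTGS1) had an unadjusted p under 0.05, and the PTGS2 change was -0.20 (adjusted p = 0.813). ANXA1 was lower than in HaCaT-vector (-0.65), the one pathway gene of 40 that passed in that comparison. Against HaCaT, AKR1C3 (-1.96), PTGIS (-1.70) and ANXA1 (-0.75) were lower and PLAA (0.39) was higher. None of them passed in the fit of these groups alone (adjusted p between 0.133 and 0.592). AKR1C3 did not pass without HaCaT replicate 1 or HaCaT-p65 replicate 3, nor PLAA without HaCaT replicate 3 or HaCaT-p65 replicate 1. Of the marker lists, 1 of 7 fibroblast markers was higher in HaCaT-p65, and the mean of that list was 5.82 in HaCaT-p65 and 4.96 in HaCaT-vector. That gene, LUM, a matrix proteoglycan, averaged 10.03 in HaCaT-p65 and 4.66 in HaCaT-vector (adjusted p = 1.36e-08), while COL1A1, COL1A2 and DCN averaged 6.71, 4.73 and 4.91 in HaCaT-p65. None of 6 keratinocyte markers passed, and of 4 melanocyte markers MITF was lower (-0.69). The part of these markers in the results was not tested.

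HaCaT-vector itself carried more PTGS2 than HaCaT, at a change of 0.87 (SE 0.25, adjusted p = 0.0479), where 2.87% of all genes passed. HaCaT was at 6.69, 7.15 and 7.95, so the ranges overlapped. This call did not hold without HaCaT replicate 1 (0.59, adjusted p = 0.311), HaCaT replicate 2 (0.82, adjusted p = 0.164), HaCaT-vector replicate 2 (0.80, adjusted p = 0.211) or HaCaT-vector replicate 3 (0.79, adjusted p = 0.238). Without HaCaT replicate 1 PTGES passed instead (1.51, adjusted p = 0.00344). Without HaCaT replicate 3 both PTGS2 and PLA2G4A (-1.13, adjusted p = 0.0188) passed. In the pathway lists PTGIS (-1.47) was lower and PLAA (0.59) higher in HaCaT-vector than in HaCaT. Neither passed in the fit of these groups alone (adjusted p = 0.516 and 0.413). PTGIS also did not without HaCaT replicate 1 (adjusted p = 0.0970) or HaCaT-vector replicate 2 (adjusted p = 0.0563). The order of mean PTGS2 in serum was HaCaT-EGFR (8.79), HaCaT-HRAS (8.76), HaCaT-vector (8.14), HaCaT (7.27) and HaCaT-p65 (7.06). The ranges of neighbours in this order overlapped throughout.

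**Figure D2:**
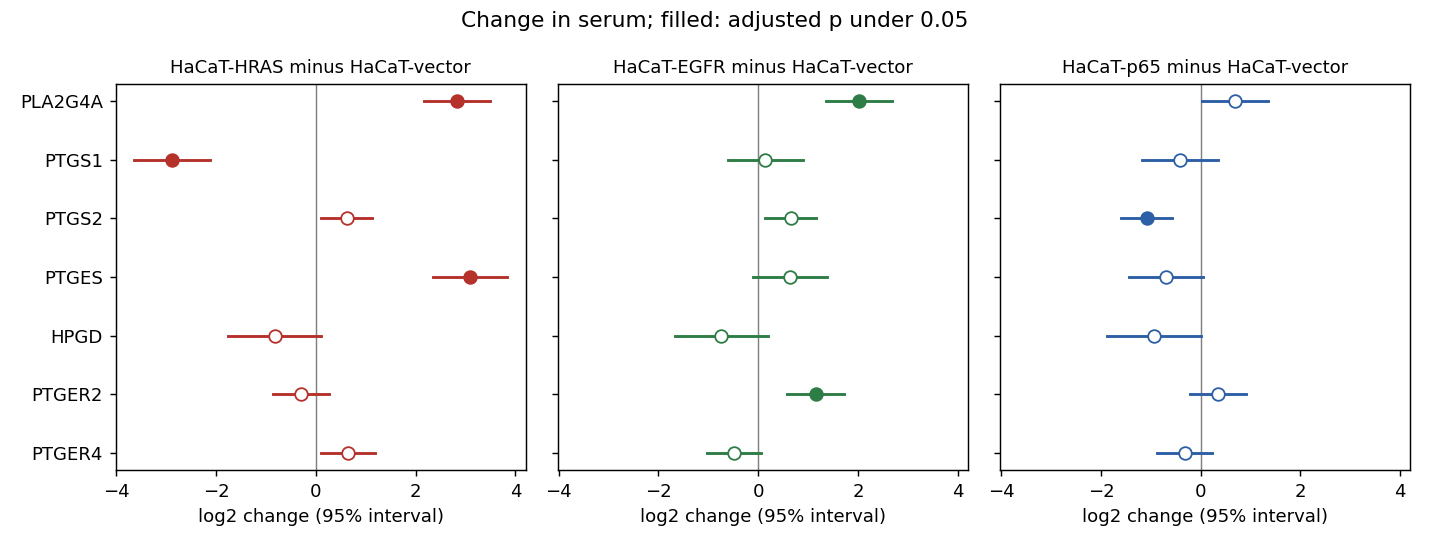
Log2 change of the 7 genes in serum, HaCaT-HRAS, HaCaT-EGFR and HaCaT-p65 each minus HaCaT-vector. Bars are 95% intervals, and filled points passed. PLA2G4A was higher by 2.83 in HaCaT-HRAS and by 2.03 in HaCaT-EGFR, and PTGS2 changed by -1.08 in HaCaT-p65.

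In starved cells PLA2G4A and PTGER2 were again higher in HaCaT-EGFR than in HaCaT-vector, 2 of the 7 genes, where 7.89% of all genes passed. PLA2G4A had a lowest, median and highest value of 5.57, 6.37 and 6.50 in HaCaT-EGFR, against 4.51, 4.996, 4.95 and 4.75 in HaCaT-vector (change 1.41, SE 0.37, adjusted p = 0.0106). PTGER2 had values of 5.39, 6.47 and 6.65 in HaCaT-EGFR, against 4.49, 4.71, 4.70 and 5.04 in HaCaT-vector (change 1.38, SE 0.32, adjusted p = 0.00283). Neither gene overlapped between the lines, and the HaCaT-vector values of both lay about or below the array medians of 4.98 to 5.24. On the 1 date that held both, the differences were 1.55 for PLA2G4A and 1.14 for PTGER2. Without the HaCaT-vector array of that date PLA2G4A did not pass (1.31, adjusted p = 0.375), nor did it with 4 h arrays only (1.37, adjusted p = 0.0523), and PTGER2 did not in the fit of these groups alone (adjusted p = 0.460). In the pathway lists PTGIS (1.55) was higher in starved HaCaT-EGFR, and ALOX12B (-1.52), an epidermal lipoxygenase, CBR3 (-0.77) and PTGR2 (-0.66) were lower. Without the same HaCaT-vector array PTGIS (1.71, adjusted p = 0.150) and PTGR2 (-0.74, adjusted p = 0.192) did not pass, and none of the 4 did in the fit of these groups alone (adjusted p between 0.0903 and 0.233). HPGD was lower in every HaCaT-EGFR array (5.59, 6.68 and 7.24) than in HaCaT-vector (8.20, 7.97, 7.99 and 8.00), and the change of -1.46 (SE 0.53, adjusted p = 0.0910) did not pass. Of its 3 other probe sets 2 did (-1.78 and -1.23, adjusted p = 0.0348 and 0.0144 over all probe sets).

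HPGD had its largest difference between HaCaT-p65 and HaCaT-vector, and it was the one gene of the 7 that passed between these lines in starved cells, where 5.30% of all genes did. HaCaT-p65 was at 5.11, 4.55 and 4.73, against 8.20, 7.97, 7.99 and 8.00 in HaCaT-vector (change -3.24, SE 0.64, adjusted p = 0.000947). The HaCaT-p65 values lay about or below the array medians of 4.98 to 5.24, so the size of the change rests on dim values. Of the 3 other HPGD probe sets 2 passed in the same direction (-3.19 and -1.77). No date held both groups, so that the change rested on HaCaT-EGFR arrays of the same dates, and without the HaCaT-vector array of the sixth date it was -3.31 (adjusted p = 0.0518). In serum, where both lines shared a date, HPGD was at 4.37, 5.77 and 6.27 in HaCaT-p65 and at 6.00, 6.42 and 6.77 in HaCaT-vector, with overlap (change -0.93, SE 0.46, adjusted p = 0.322). CBR3 was also lower in starved HaCaT-p65 (-0.98) and DAGLB was higher (0.54). DAGLB did not pass without HaCaT-p65 starved 4 h replicate 2 (adjusted p = 0.0837) or the HaCaT-vector array of the sixth date (adjusted p = 0.298). It also did not with a TNF-α array of HaCaT-p65, called a control in the study's sample sheet, moved to the starved arrays (adjusted p = 0.0819). LUM averaged 9.57 in starved HaCaT-p65 and 7.31 in starved HaCaT-vector (adjusted p = 0.103), DCN was lower in HaCaT-p65 (-1.28), the one fibroblast marker of 7 that passed, and none of the 6 keratinocyte markers did.

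Serum was set against starved cells of the same line, and none of the 7 genes passed in HaCaT-EGFR, HaCaT-p65 or HaCaT-vector, where 3.25%, 0.703% and 0.976% of all genes did. By limma's unadjusted p under 0.05 there were 1, 2 and 3 in these lines, which cannot be set beside these shares, as they are by adjusted p. The arrays separated for some of the genes, in HaCaT-EGFR for PTGS1 alone. In HaCaT-vector all but PTGER2 separated, and in HaCaT-p65 all but HPGD and PLA2G4A. For HaCaT-vector and HaCaT-p65 no date held both media, so their separation rests on the date subtraction. How many of all genes separated in this way was not counted, so the separation is not a result about the 7 genes. PTGS1 was at 10.58, 10.12, 10.53, 10.39 and 10.42 in HaCaT-EGFR in serum, all above the 8.62 to 9.77 of starved HaCaT-EGFR (change 1.13, SE 0.39, adjusted p = 0.111). On the sixth date, which held 2 serum and 3 starved arrays of this line, the difference was 1.03. In HaCaT-p65 PTGS1 was at 10.06, 10.07 and 9.40 in serum and 8.58, 8.56 and 8.66 when starved (change 1.25, SE 0.62, adjusted p = 0.479). In HaCaT-vector it was at 10.21 to 10.32 in serum and 8.25 to 8.40 when starved (change 1.96, SE 0.62, adjusted p = 0.128).

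PTGS2 in HaCaT-p65 was at 6.97, 7.31 and 6.90 in serum, all below the 8.44, 8.15 and 7.96 of starved cells (change -1.13, SE 0.42, adjusted p = 0.242). With replicate number as a block the adjusted p was 0.190, and with the added block of date and number, though whether the numbers pair these groups was not tested, the change was -1.33 (adjusted p = 0.0229).

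PTGES stood the other way round to PTGS1. It was at 7.21 to 7.56 in HaCaT-p65 in serum and 8.85 to 9.39 when starved (change -1.78, SE 0.60, adjusted p = 0.180). In HaCaT-vector it was at 7.98 to 8.18 in serum and 9.83 to 9.92 when starved (change -1.78, SE 0.60, adjusted p = 0.175). In HaCaT-EGFR the ranges of 8.50 to 9.03 in serum and 8.59 to 9.56 when starved overlapped (change -0.43, SE 0.38, adjusted p = 0.630). For HaCaT-p65 and HaCaT-vector no date held both media, and the serum date was tied to the others only through the serum arrays of HaCaT-EGFR, whose means on both dates were made equal by the date subtraction. Serum and date thus cannot be told apart in these lines beyond that link. A fit without a date term gave the same changes, because the deposited values already had the date coefficients subtracted. It left out the uncertainty of that subtraction, so passing in it is not a call. For PTGS1 in HaCaT-vector its adjusted p was 1.82e-05, beside 0.128. In that fit 6 genes passed in HaCaT-vector, 3 in HaCaT-p65 and 2 in HaCaT-EGFR, PTGS1 among them in each line. The share of all genes that passed in it was not counted, so these counts have nothing to be set beside. The response to serum did not differ between HaCaT-EGFR and HaCaT-vector past the threshold for any of the 7, where 0.238% of all genes passed, and the largest difference was 1.34 for PTGES (SE 0.56, adjusted p = 0.682), 1 of 2 genes with an unadjusted p under 0.05. CBR3 was lower in serum in HaCaT-EGFR (-0.76) and HaCaT-vector (-1.16), and MGLL was higher in HaCaT-p65 (1.73). CBR3 in HaCaT-vector did not pass without the starved array of the sixth date (adjusted p = 0.0621). In HaCaT-EGFR it did not in the fit of these groups alone (adjusted p = 0.177). MGLL did not pass without any 1 of HaCaT-p65 serum replicates 2 and 3 and the starved arrays of the second date (adjusted p between 0.0683 and 0.106). It also did not with all probe sets (adjusted p = 0.0530) or with 4 h arrays only (adjusted p = 0.255).

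EGF did not move any of the 7 genes past the threshold, neither in HaCaT-EGFR, where 8.80% of all genes passed, nor in HaCaT-vector, where 1.01% did, and by limma's unadjusted p under 0.05 there were 0 in each line. In HaCaT-EGFR PTGS2 had a lowest, median and highest value of 8.75, 8.97 and 9.64 with EGF and 8.52, 8.77 and 9.09 when starved. The ranges overlapped, and the change was 0.25 (SE 0.17, adjusted p = 0.434). In HaCaT-vector PTGS2 was at 8.91, 8.41, 8.54 and 8.58 with EGF, against 8.68, 9.17, 9.05 and 9.01 when starved (change -0.37, SE 0.23, adjusted p = 0.724). The difference between these responses was 0.62 (SE 0.28), with an adjusted p above 0.99 (unadjusted p under 0.05 for this gene alone), and 0.00% of all genes passed that test. PTGS1 in HaCaT-EGFR had values of 8.96, 9.95 and 10.43 with EGF and 8.62, 9.27 and 9.77 when starved (change 0.45, SE 0.25, adjusted p = 0.306). Within dates its difference was 0.88, 0.32 and 0.25. In HaCaT-vector PTGS1 was at 8.59, 8.81, 8.65 and 8.76 with EGF, all above the 8.40, 8.25, 8.32 and 8.25 of starved cells (change 0.40, SE 0.33, adjusted p = 0.895). Within dates the difference was 0.30, 0.36 and 0.51, and PTGS1 passed when these groups alone were fitted (adjusted p = 0.0489).

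HPGD was the gene with the largest EGF difference in HaCaT-EGFR. It had values of 5.56, 5.95 and 6.63 with EGF and 5.59, 6.68 and 7.24 when starved (change -0.54, SE 0.30, adjusted p = 0.331). With the times fitted apart the change was -0.23 at 4 h (SE 0.36, adjusted p = 0.823) and -1.30 at 8 h (SE 0.56, adjusted p = 0.389), where 5.93% and 0.329% of all genes passed and 0 and 1 of the 7 had an unadjusted p under 0.05. At 8 h there were 2 arrays a group, at 5.56 and 5.95 with EGF and 7.24 and 6.86 when starved. The times differed by -1.06 (SE 0.67, adjusted p above 0.99). PTGER4 changed by -0.07 at 4 h (SE 0.19, adjusted p = 0.909) and by -0.61 at 8 h (SE 0.31, adjusted p = 0.476). In the pathway lists CBR3, a carbonyl reductase, was lower with EGF in HaCaT-EGFR (-0.60, adjusted p = 1.69e-06).

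TNF-α moved none of the 7 genes past the threshold in HaCaT-p65, where 2.03% of all genes passed, or in HaCaT-vector, where 0.905% did. By limma's unadjusted p under 0.05 there were 0 and 1, which was PTGS2. In HaCaT-p65 PTGS2 was at 8.02, 7.69, 8.03, 7.84 and 8.11 with TNF-α and at 8.44, 8.15 and 7.96 when starved (change -0.25, SE 0.23, adjusted p = 0.631). In HaCaT-vector it was at 8.27, 8.84 and 8.25 with TNF-α and at 8.68, 9.17, 9.05 and 9.01 when starved, with overlap (change -0.52, SE 0.25, adjusted p = 0.762). PTGES in HaCaT-vector was at 10.09, 10.42 and 10.21 with TNF-α, all above the 9.83 to 9.92 of starved arrays (change 0.38, SE 0.37, adjusted p = 0.999). PTGS1 in HaCaT-p65 was at 7.02 and 7.77 with TNF-α on the second date, against 8.58 and 8.56 when starved, a difference of -1.18. On the third date it was at 8.75, 8.58 and 8.86 with TNF-α, against 8.66 when starved, a difference of 0.08. Over both dates the change was -0.40 (SE 0.34, adjusted p = 0.589).

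An array of HaCaT-p65 with TNF-α, replicate 3 of 4 h on the third date, is called a control in the sample sheet of the study. Without it, or with it among the starved arrays, still none of the 7 passed. The response to TNF-α did not differ past the threshold between HaCaT-p65 and HaCaT-vector for any of the 7, where 0.0101% of all genes passed and 0 of the 7 had an unadjusted p under 0.05. EGF against TNF-α in HaCaT-vector gave none either, where 1.41% passed, also before adjustment, and the largest change was 0.37 for PTGS1 (SE 0.36). In HaCaT-p65 CBR1 (-0.70), DAGLB (-0.43) and LTA4H (-0.33) were lower with TNF-α. CBR3 was lower with EGF than with TNF-α in HaCaT-vector (-0.50). It did not pass without TNF-α replicate 1 or 2 or EGF replicate 3 (adjusted p between 0.0554 and 0.140). Nor did it with arrays centred on their median (adjusted p = 0.0513) or in the fit of these groups alone (adjusted p = 0.0656). CBR1 and LTA4H did not pass with 4 h arrays only (adjusted p = 0.0589 and 0.0737). Without HaCaT-p65 starved 4 h replicate 1 or TNF-α 4 h replicate 1, both of the second date, none of the 3 passed in HaCaT-p65 (adjusted p between 0.0618 and 0.272). Without starved replicate 2 of the third date DAGLB and LTA4H did not (adjusted p = 0.0923 and 0.107), and without TNF-α 8 h replicate 1 LTA4H did not (adjusted p = 0.140). DAGLB and LTA4H did not pass with arrays centred on their median (adjusted p = 0.0813 and 0.164) or quantile normalized (adjusted p = 0.0525 and 0.0882), and DAGLB did not with the array called a control moved to the starved arrays (adjusted p = 0.0611). In the fit of these groups alone none of the 3 passed (adjusted p of 0.386 to 0.392).

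**Figure D3:**
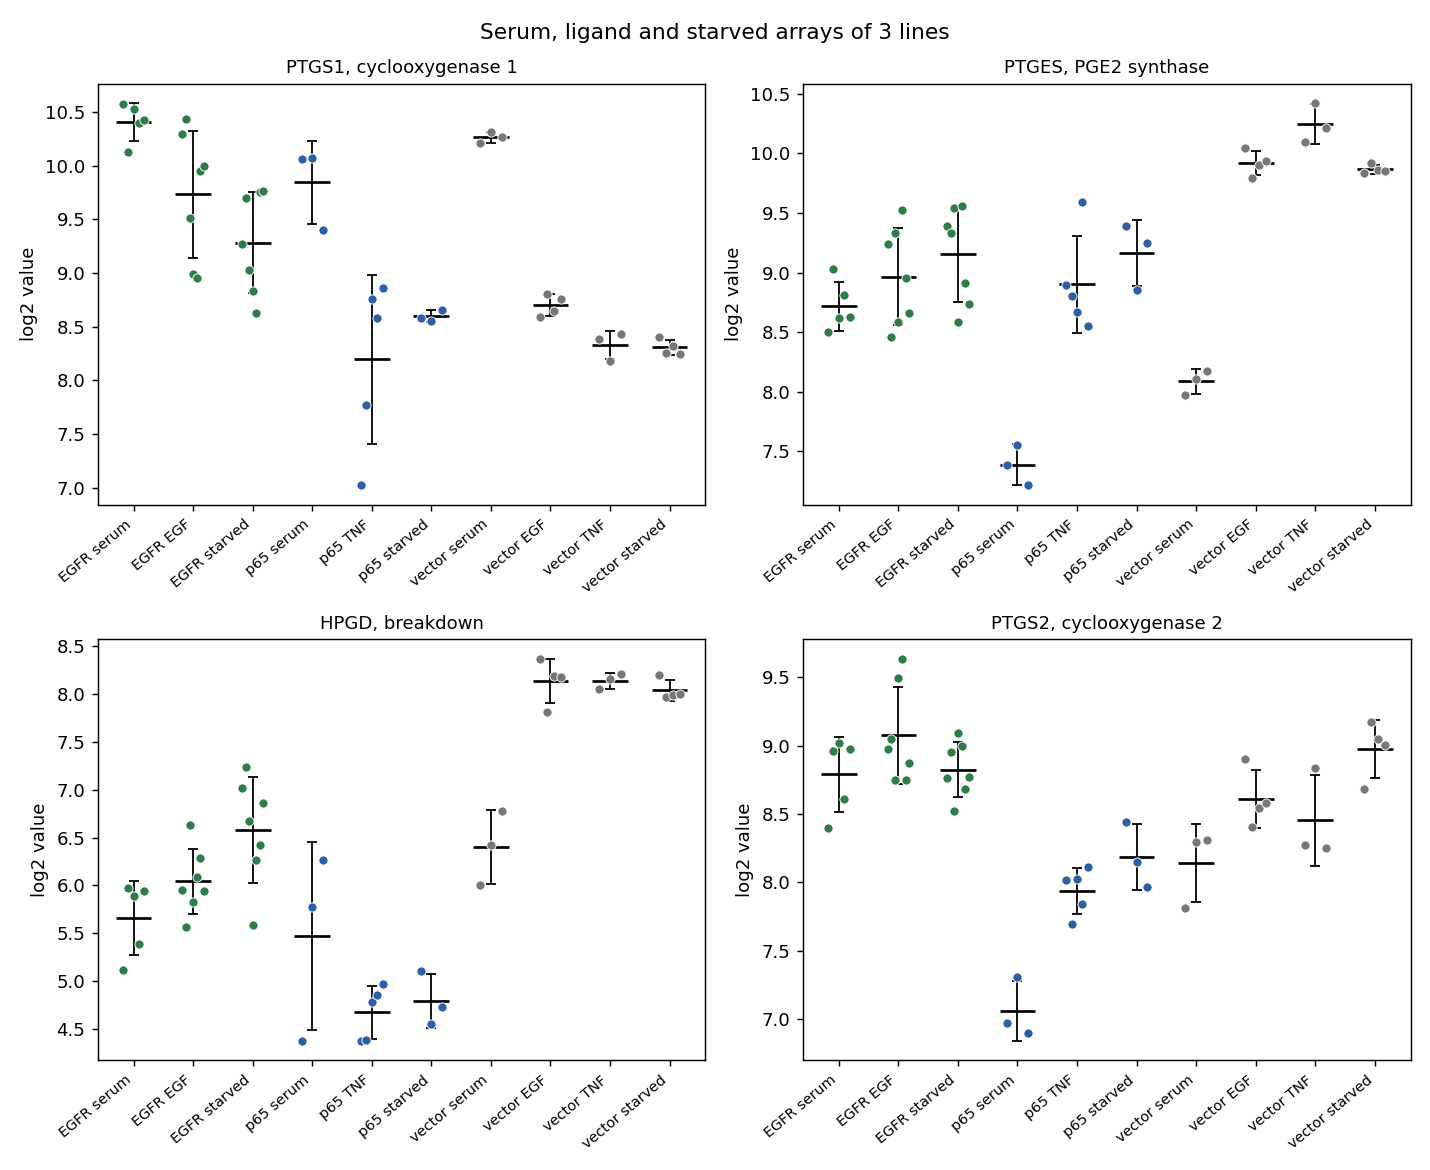
Log2 values of PTGS1, PTGES, HPGD and PTGS2 in serum, with EGF or TNF-α, and starved, by line. Points are arrays, horizontal lines are means and bars are the SD. Without serum HPGD lay between 4.37 and 5.11 in HaCaT-p65 and between 7.81 and 8.37 in HaCaT-vector.

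The U1026 arrays of the 2 lines had the highest PTGS2 of all 18 conditions, and their PTGER2 was lower than with EGF alone. These 2 of the 7 genes passed for U1026 with EGF against EGF as the mean over both lines, where 3.02% of all genes did. PTGS2 was at 10.41 in HaCaT-EGFR with U1026 and EGF, against a lowest, median and highest value of 8.75, 8.97 and 9.64 with EGF alone. In HaCaT-vector it was at 10.16 with U1026 and EGF, against 8.91, 8.41, 8.54 and 8.58 with EGF alone. Each U1026 array lay above every EGF array of its line, by 1.33 in HaCaT-EGFR and 1.55 in HaCaT-vector from the condition mean, and the mean change was 1.44 (SE 0.26, adjusted p = 0.000855).

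PTGER2 was at 4.48 in HaCaT-EGFR with U1026 and EGF, against 6.01, 6.41 and 7.08 (lowest, median and highest) with EGF alone. In HaCaT-vector it was at 4.16 with U1026 and EGF, against 5.01, 4.88, 4.73 and 4.47 with EGF alone. Both U1026 arrays lay below all EGF arrays of their line, by -1.95 in HaCaT-EGFR and -0.61 in HaCaT-vector from the condition mean, and the mean change was -1.28 (SE 0.29, adjusted p = 0.00767). A difference between the lines was not tested. The HaCaT-vector values lay about or below the array medians of 4.98 to 5.24, so the change there was between dim values. The EGF array of HaCaT-vector on the sixth date, that of the U1026 arrays, was at 4.47. PTGER2 had no other probe set. The lone U1026 array of each line was assumed to vary like the other groups, and its loss leaves no value for the mean of both lines. In the fit of these groups alone the adjusted p was 0.0834 for PTGS2 and 0.108 for PTGER2. None of the 40 other pathway genes passed with U1026.

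LY294002 moved none of the 7 past the threshold, where 0.693% of all genes passed, and 1 (PTGER2) had an unadjusted p under 0.05. PTGS2 was at 9.53 in HaCaT-EGFR and 8.60 in HaCaT-vector with LY294002 and EGF, within the range of the EGF arrays in both lines (mean change 0.22, SE 0.26, adjusted p = 0.900). PTGER2 was at 5.60 in HaCaT-EGFR and 4.34 in HaCaT-vector, below all EGF arrays of each line (mean change -0.63, SE 0.29, adjusted p = 0.447). HPGD was at 7.10 in HaCaT-vector with LY294002 and EGF, against 8.37, 7.81, 8.19 and 8.18 with EGF alone, and at 6.16 in HaCaT-EGFR, within the EGF range.

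Gefitinib moved none of the 7 past the threshold either, with EGF, where 1.81% of all genes passed, or in serum, where 1.79% did. In each case 2 of the 7 had an unadjusted p under 0.05 by limma, a threshold at which all genes were not counted. PTGER2 was at 5.69 and 5.51 with gefitinib and EGF, below the 6.01 to 7.08 of EGF alone (change -0.83, SE 0.29, adjusted p = 0.154). In serum it was at 4.71 and 4.78 with gefitinib, below the 5.45 to 5.94 of serum alone (change -0.95, SE 0.34, adjusted p = 0.172). PTGS2 was at 8.28 and 8.62 with gefitinib and EGF, below the 8.75 to 9.64 of EGF alone (change -0.62, SE 0.27, adjusted p = 0.295). The PTGER2 changes passed without a date term (adjusted p = 0.0484 with EGF and 0.0200 in serum). That fit gave the same changes and left out the uncertainty of the date subtraction, so these are not calls. PTGS1 in serum was at 9.51 and 9.33 with gefitinib, below the 10.12 to 10.58 of serum alone (change -0.99, SE 0.46, adjusted p = 0.351). Between gefitinib with EGF and starved cells 0.00% of all genes passed, and 0 of the 7 had an unadjusted p under 0.05. In the pathway lists CBR3 was higher with gefitinib, by 0.98 with EGF (adjusted p = 1.94e-05) and by 0.54 in serum (adjusted p = 0.0429), and the serum change did not pass with arrays centred on their median (adjusted p = 0.103) or without any 1 of the 4 serum arrays of the sixth date, with or without gefitinib (adjusted p between 0.165 and 0.298).

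**Figure D4:**
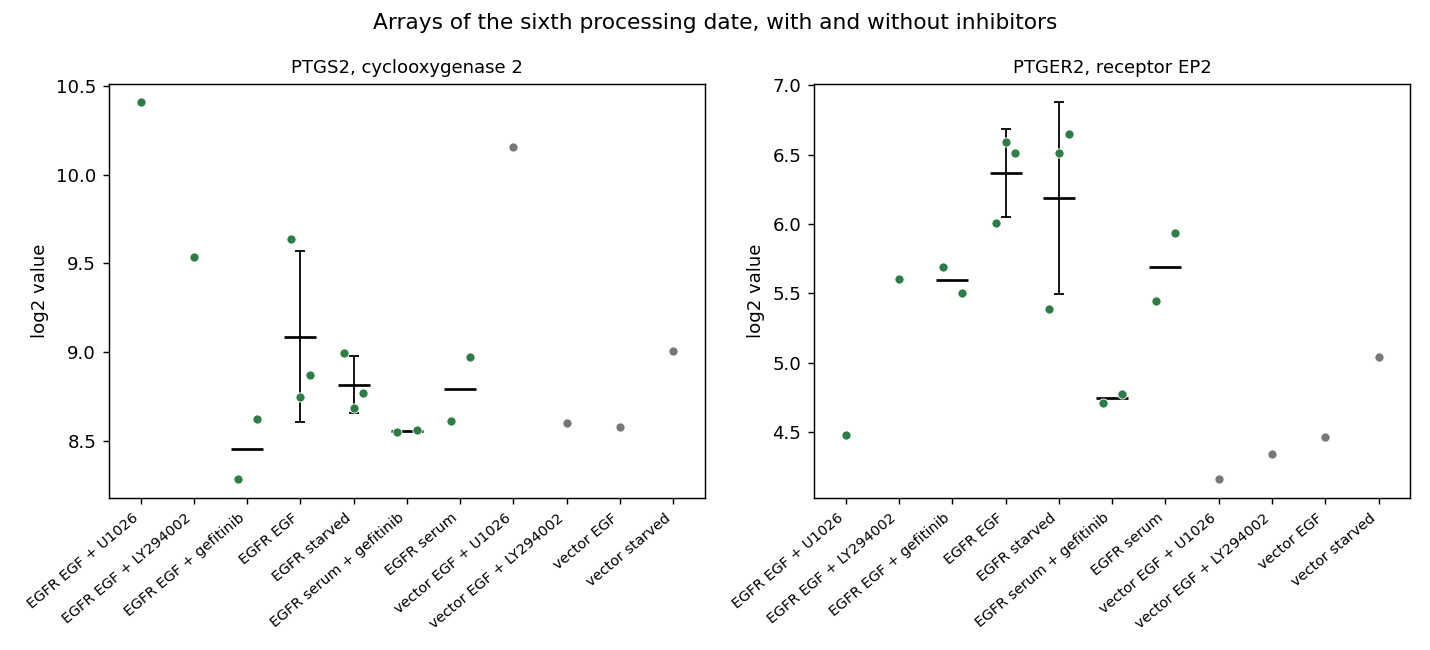
Log2 values of PTGS2 and PTGER2 on the arrays of the sixth processing date, by line and treatment. Points are arrays, horizontal lines are means of 2 or more arrays and bars are the SD of 3. PTGS2 was at 10.41 and 10.16 with U1026, above all other arrays shown, and PTGER2 was lowest of its line with U1026, at 4.48 in HaCaT-EGFR and 4.16 in HaCaT-vector.

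Over the 22 comparisons of conditions, PLA2G4A passed in 5, always higher, and PTGES in 3, always higher. PTGS1 passed in 2, both lower, and HPGD in 1, lower. PTGS2 passed in 4 as higher and 1 as lower, PTGER2 in 2 each way, and PTGER4 in 1 as higher. Several of these comparisons share arrays. The condition means of PTGES and PTGS1 correlated at -0.83 over the 18 conditions, those of PTGES and PTGS2 at 0.59 and those of PTGS1 and PTGS2 at -0.33. All conditions come from the same lines and dates, so these are descriptions. PTGES was highest in HaCaT-HRAS in serum (11.18) and lowest in HaCaT in serum (7.27), and PTGS1 was highest in HaCaT in serum (10.74) and lowest in HaCaT-HRAS in serum (7.38).

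HPGD was highest in the HaCaT-vector arrays without serum, at 8.14 with TNF-α, 8.14 with EGF and 8.04 when starved, and lowest in HaCaT-p65, at 4.68 with TNF-α and 4.80 when starved. The neighbours within each of these sets overlapped. PLA2G4A was highest in HaCaT-HRAS in serum (6.82), followed by all 7 conditions of HaCaT-EGFR between 6.29 and 5.78, and all conditions of HaCaT-p65, HaCaT-vector and HaCaT lay between 4.88 and 3.99. PTGER4 was highest in HaCaT-HRAS in serum (9.73) and lowest in HaCaT-EGFR with U1026 and EGF (7.72), and its dimmer probe set correlated at -0.31 with the one used. PTGER2 was highest in HaCaT-EGFR with EGF (6.43) and lowest in HaCaT-vector with U1026 and EGF (4.16). Among 13840 genes with a range above 1, the condition means most like those of PTGS2 were those of TTC21A, MAP1LC3A, KLF3, MFSD2A and MECR (r between 0.88 and 0.85). For PTGES they were SCNN1A, RPLP2, ATP5MJ, COX14 and SYNGR1 (r between 0.89 and 0.86), and for HPGD VAMP8, ANKRD65, CYP4B1, DYNLRB2 and MAF (r between 0.94 and 0.92).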

How the data were processed

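RNA of the 58 samples was hybridised to Affymetrix U133 Plus 2.0 arrays. The deposited log2 values were made by the authors, who summarized 54675 probe sets with fRMA, fitted condition and processing date with limma and subtracted the date coefficients. A refit left date coefficients of at most 1.17e-08. The labels name 1 extraction kit for all arrays, whereas the study's sample sheet gives another for the sixth date, which holds all 8 inhibitor arrays.

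Symbols came from the platform annotation (41097 probe sets with 1, 1801 with several, 11777 with none). All arrays entered 1 model with a term for each of 18 conditions and for 6 dates (limma 3.58.1, R 4.3.3, 35 residual degrees of freedom), with Benjamini-Hochberg adjustment over 19775 genes at a threshold of 0.05, two-sided. Differences between responses were interactions in this fit, and EGF in HaCaT-EGFR was also fitted by hour. The fit was also run on simulated data with independent noise of equal spread in every condition. That run thus held neither a pairing of arrays nor the wider spread of HaCaT, and it is not used as support for the calls.

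The genes, pathway lists and marker lists were chosen with earlier results of these data known. All 7 prostaglandin genes are named. Of each pathway list at most 4 genes that passed are named, in order of absolute change. Genes most like PTGS2, PTGES and HPGD were ranked by Pearson's r over condition means.

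Deviations of same-numbered serum arrays from their group means correlated above 0.1 in every pair for HaCaT-HRAS and HaCaT-vector (0.191 to 0.527) and for HaCaT-EGFR and HaCaT-vector (0.216 to 0.529). The numbers were therefore treated as pairing these lines, but only in the replicate blocks, which were alternatives. The main model held no block, so its calls ignore this pairing. Differently numbered arrays reached 0.247 for HaCaT-HRAS and HaCaT-vector and 0.227 for HaCaT-EGFR and HaCaT-vector. These values lie above the lowest same-numbered pairs, so the cut of 0.1 did not set such pairs apart. The HaCaT pairs, the HaCaT-p65 serum pairs (lowest 0.084 with HaCaT-vector) and the ligand groups did not exceed 0.1 in every pair. Alternatives were centring, quantile normalization, a dim filter (highest condition mean of 6), no date term, all probe sets, replicate blocks, an intensity trend with a robust prior, the compared groups alone, 4 h arrays only and each array left out. The number of arrays limits the precision. Python 3.11.15 and matplotlib 3.10.9 drew the plots.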

Additional observations from a re-analysis of the deposited data

Results flagged for a closer look

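One array stood apart from its group. HPGD in starved HaCaT-vector was at 8.20 on replicate 3 of the fourth date, and the other arrays lay between 7.97 and 8.00. The gap to the nearest was 0.87 of the whole range, which is itself small. Of 42 sets of arrays examined this way 1 was singled out, and chance singles out about 1 in 20. No difference between lines in the response to EGF, TNF-α or serum passed for any of the 7 genes.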

How the results depend on the processing

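Counts of the 7 genes that passed were compared over 28 comparisons. They kept to within 1.5 times under quantile normalization, the dim filter, the intensity trend and the replicate number as a block, and for HaCaT-p65 without the array called a control or with it moved to the starved arrays, a setting added after the data were seen. With the replicate number as a block the HaCaT-HRAS change of PTGS2 against HaCaT-vector kept an adjusted p of 0.0625. With date and number as a block, also added then, 1 gene, PTGS2, passed for serum in HaCaT-p65 and 1, again PTGS2, for gefitinib with EGF, where 0 had, and whether the numbers pair these groups was not tested. HaCaT-vector over HaCaT had 0 with arrays centred, with all probe sets and in the groups alone, and 0 to 2 with single arrays left out. The compared groups alone gave 2 for HaCaT-p65 over HaCaT-vector in serum, 3 for HaCaT-HRAS over HaCaT, 0 for HaCaT-EGFR over HaCaT, 1 for starved HaCaT-EGFR over HaCaT-vector, 1 (PTGS1) for EGF in HaCaT-vector and 0 for U1026. For 3 serum and starved comparisons across dates they could not be fitted apart. Without a date term starved HaCaT-EGFR over HaCaT-vector had 5 and starved HaCaT-p65 over HaCaT-vector 3. In that fit serum had 2 in HaCaT-EGFR, 6 in HaCaT-vector and 3 in HaCaT-p65, and gefitinib had 1 each with EGF and in serum. The changes were the same as in the main fit. Only the uncertainty of the date subtraction was left out, so these counts are not calls. For none of the alternatives was the share of all genes that passed counted. With 4 h arrays only, starved HaCaT-EGFR over HaCaT-vector had 1. With single arrays left out it had 1 to 2, and starved HaCaT-p65 over HaCaT-vector had 0 to 1. HPGD in HaCaT-vector over HaCaT turned to -0.17 without HaCaT replicate 2, beside 0.59 with it, and lay between -0.17 and 1.40 with single arrays left out. PTGS1 in this comparison turned to 0.038 without the same array and lay between -0.84 and 0.038. The cause of these changes was not tested. Values of 1 or 2 inhibitor arrays a group limit what could be detected there.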
